A study of Drosophila melanogaster with 32 samples.

Results

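The cadherins described here are 10 genes of Drosophila melanogaster, chosen by name from the 16257 genes of the count table as the classical and non-classical cadherins outside the Fat branch. They are shg, CadN, CadN2, Cad74A, Cad86C, Cad87A, Cad88C, Cad89D, Cad96Ca and Cad99C, and each was matched to its row by FlyBase gene ID. The choice was made with a difference of Cad88C between both knockdowns in the early somatic ovary already known, so that comparison is given as a description without a test. Per length, shg and CadN had the highest levels in somatic cells, and shg and Cad87A in germ line cells. CadN, shg and Cad86C were higher in the soma than in the germ line at both stages tested, and Cad99C was lower.

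Cadherins are transmembrane proteins whose extracellular repeats bind calcium. Classical cadherins bind their like on the neighbouring cell and hold the actin cytoskeleton to the junction through beta-catenin (armadillo, arm, in the fly) and alpha-catenin. In the fly ovary E-cadherin, encoded by shg, is known for holding germ line stem cells to their niche and for the adhesion of the somatic cells, while most non-classical cadherins lack the catenin-binding tail and are less well described. The Hippo pathway restrains growth: the kinase hippo (hpo) acts in a cascade that keeps the transcriptional co-activator yorkie (yki) out of the nucleus.

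Polyadenylated RNA was sequenced from GFP-positive cells sorted from ovaries at 72 hours after egg laying (early), 96 hours (mid) and 120 hours (late), the first 2 from III instar larvae and the last from white pupae. Somatic cells came from animals in which bab:GAL4 drove UAS hpo RNAi or UAS yki RNAi together with UAS GFP, and germ line cells from animals in which nos:GAL4, in a stock that also carries UAS-Dcr-2, drove the same transgenes. Only cells with an active driver were therefore collected, every group carries a driver, GFP and an RNAi hairpin, and no group used here is free of a knockdown. The 30 libraries analysed form 6 somatic groups (hpo RNAi and yki RNAi at early, mid and late) and 4 germ line groups (hpo RNAi and yki RNAi at mid and late), each of 3 replicates that the series describes as biological, while 2 early germ line samples, 1 per knockdown, were not analysed here.

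Library totals ran from 15.2 to 75.1 in units of 1000000 counts, with a median of 31.9. Levels of hpo were lower under hpo RNAi than under yki RNAi in every tested comparison, by log2 values between -2.91 and -2.44. Levels of yki were lower under yki RNAi in the early and mid soma (log2 1.82 and 1.27 for hpo RNAi against yki RNAi, adjusted p = 0.00299 and 0.0325). In the late soma (log2 0.99, adjusted p = 0.245) and the mid germ line (0.63, 0.715) they were not called, though the groups did not overlap. In the late germ line the groups overlapped (log2 0.17, adjusted p = 0.951). The sorted cell types carried their markers: 9 germ line genes summed to between 5760 and 7144 counts per 1000000 counts of a library (CPM) in germ line libraries and to between 8.21 and 79.5 in somatic ones. The 10 somatic genes summed to between 2674 and 8236 CPM in somatic libraries and to between 101 and 360.5 in germ line ones. In bulk samples, fewer cells of a type and less RNA per cell cannot be told apart.

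Per length, shg was the most abundant cadherin of both cell types. As CPM per kb of exon, a scale on which levels of different genes can be set side by side, the somatic medians were 119.6 for shg, 34.2 for CadN, 18.6 for Cad87A, 10.9 for Cad86C and 0.727 for Cad88C. Neighbours in this order kept it in 18 of 18 somatic libraries for shg and CadN, 18 of 18 for CadN and Cad87A, 17 of 18 for Cad87A and Cad86C, and 18 of 18 for Cad86C and Cad88C. Below them Cad96Ca, with a median of 0.235, was under Cad88C in 12 of 18 libraries, so those 2 were not separated beyond their spread.

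Germ line cells kept shg first but ranked the others differently. Medians there were 35.9 CPM per kb for shg, 18.3 for Cad87A, 2.15 for Cad99C, 1.07 for Cad86C, 0.843 for Cad88C, 0.301 for Cad96Ca and 0.29 for CadN. The first steps, shg over Cad87A and Cad87A over Cad99C, held in 12 of 12 libraries, and Cad99C over Cad86C in 11 of 12. Cad86C exceeded Cad88C in 8 of 12 and Cad96Ca exceeded CadN in 5 of 12, so these neighbours overlapped. CadN2, Cad74A and Cad89D were at or near 0 in both cell types.

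**Figure D1:**
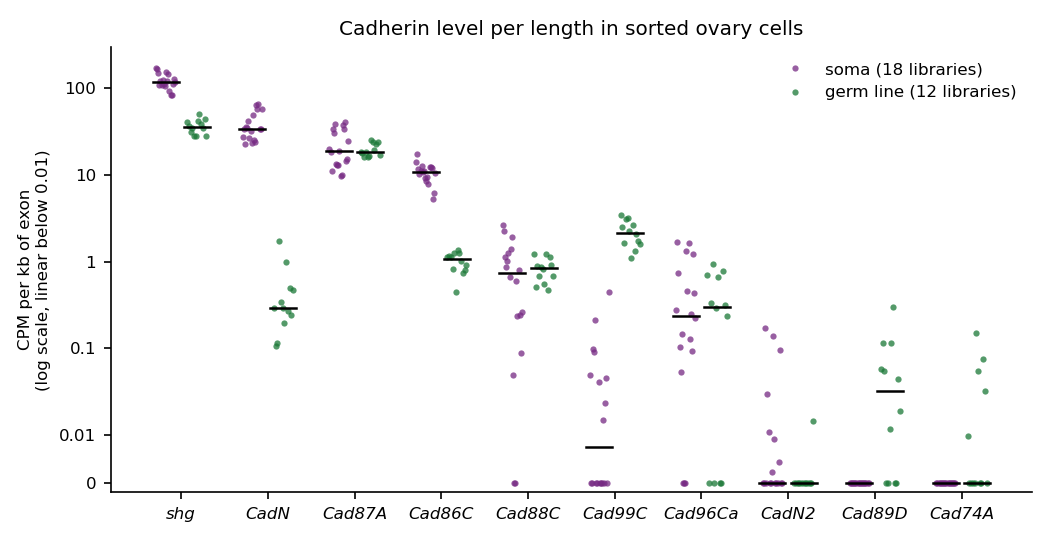
Level of each cadherin in CPM per kb of exon (log axis, linear below 0.01) in the 18 somatic (purple) and 12 germ line (green) libraries, with a black bar at the median. The somatic CadN points lie between 23.0 and 65.8 and the germ line points between 0.105 and 1.73, while the Cad87A points of both cell types lie around a median of 18.6 and 18.3.

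The classical cadherin shg (FBgn0003391, chromosome arm 2R, 21049654 to 21057197, minus strand; all positions are those of BDGP6.54) encodes E-cadherin, the core of the adherens junction. In the early soma it measured 1108, 1063 and 962 CPM under hpo RNAi, against 991, 775 and 938 CPM under yki RNAi. In the mid soma the libraries held 788, 719 and 679 CPM under hpo RNAi, against 713, 814 and 759.7 CPM under yki RNAi. In the late soma they held 698, 771 and 698 CPM under hpo RNAi, against 602, 535 and 539 CPM under yki RNAi. The knockdowns overlapped in the early and mid soma, and in the late soma every hpo RNAi library was above every yki RNAi library.

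That late difference was a log2 of 0.38 ± 0.13 (SE), with an unadjusted p of 0.0104 in edgeR and an adjusted p of 0.38, so it was not called at the threshold of 0.05 used throughout. DESeq2 did call it, with an adjusted p of 0.0203. Under yki RNAi shg fell from mid to late by 0.45 on the log2 scale (SE 0.13, adjusted p = 0.0279), with every late library below every mid one, and this call was held in 1 of 6 fits that each left out 1 library. Under hpo RNAi shg differed between mid and early by a log2 of -0.49 (SE 0.13, adjusted p = 0.0545), again without overlap. DESeq2 (adjusted p = 0.00023) and edgeR with a stricter filter on low counts (0.0384) called this change. The edgeR fit of only the compared libraries did not (0.308), nor did any of 6 fits that left out a library. Between late and mid under hpo RNAi the log2 difference was 0.01 (adjusted p = 0.97).

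In germ line cells shg was lower than in the soma. Mid germ line libraries held 223, 182 and 178 CPM under hpo RNAi, against 225, 286 and 180.0 CPM under yki RNAi, and late ones 264, 235 and 200.0 CPM and 270.4, 320.3 and 249 CPM. Soma against germ line, averaged over both knockdowns, gave a log2 value of 2.21 ± 0.12 (SE, adjusted p = 3.38e-14) at mid and 1.72 ± 0.12 (SE, adjusted p = 2.18e-12) at late, with no overlap between the cell types at either stage. The germ line median was 30.01% of the somatic one. Over the 9 somatic ovary markers with a somatic median above 0, the same share ran from 0% for en to 35.4% for bab1, with fax at 7.12% and a median of 0.536%.

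CadN (FBgn0015609, 2L, 17647053 to 17778340, minus strand), a classical N-cadherin known from axon and mesoderm adhesion, had the widest distance between the cell types among members with counts in every library. Early somatic libraries held 394, 488 and 331 CPM under hpo RNAi, against 715, 369 and 347 CPM under yki RNAi. At mid they held 379, 457 and 337 CPM under hpo RNAi, against 493, 491 and 831 CPM under yki RNAi. At late they held 516, 502 and 604 CPM under hpo RNAi, against 924, 822 and 947 CPM under yki RNAi. From mid on, every hpo RNAi library was below every yki RNAi library, while the early groups overlapped.

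The difference of hpo RNAi against yki RNAi was -0.65 ± 0.25 (log2, SE, adjusted p = 0.246) in the mid soma and -0.72 ± 0.25 (adjusted p = 0.356) in the late soma, so neither was called. Fitted on the 6 late libraries alone, the late difference was called for both CadN and shg (adjusted p = 0.00283 and 0.0298). Soma yki RNAi mid replicate 3 was the highest library of its group for CadN, and without it the mid difference was -0.33 with an adjusted p of 0.684. Soma yki RNAi early replicate 1 stood likewise above the other 2 libraries of its group. With all somatic libraries fitted, CadN did not pass the threshold between any neighbouring stages. From mid to late its log2 values were 0.49 under hpo RNAi and 0.56 under yki RNAi, with adjusted p of 0.204 and 0.161. Without soma yki RNAi mid replicate 3 the value under yki RNAi was 0.88 and was called (adjusted p = 0.0223). That was 1 of 6 fits that left out a library, and the only one with this call.

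Germ line CadN was 24.9, 4.96 and 4.21 CPM under hpo RNAi at mid, 7.14, 3.50 and 6.72 CPM under yki RNAi at mid, 4.15, 1.505 and 1.63 CPM under hpo RNAi at late, and 2.78, 14.3 and 3.85 CPM under yki RNAi at late. Against the germ line the somatic level was greater, on the log2 scale by 6.33 ± 0.45 (SE, adjusted p = 6.81e-12) at mid and 7.86 ± 0.49 (SE, adjusted p = 3.32e-13) at late, with no overlap. The germ line median of CadN was 0.849% of the somatic one, near the 0.536% that the 9 somatic markers had as their median share. The 2 germ line libraries with the most CadN, hpo RNAi mid replicate 1 and yki RNAi late replicate 2, also had the highest somatic marker sums, 360.5 and 251 CPM. Below them the orders differed: yki RNAi mid replicate 3 and hpo RNAi late replicate 2 ranked 3 and 4 by marker sum but 9 and 12 by CadN. Most of the sum was fax, with a germ line median of 132 CPM beside 163.5 for the sum. Whether carried-over somatic RNA accounts for the germ line counts of CadN was not tested.

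**Figure D2:**
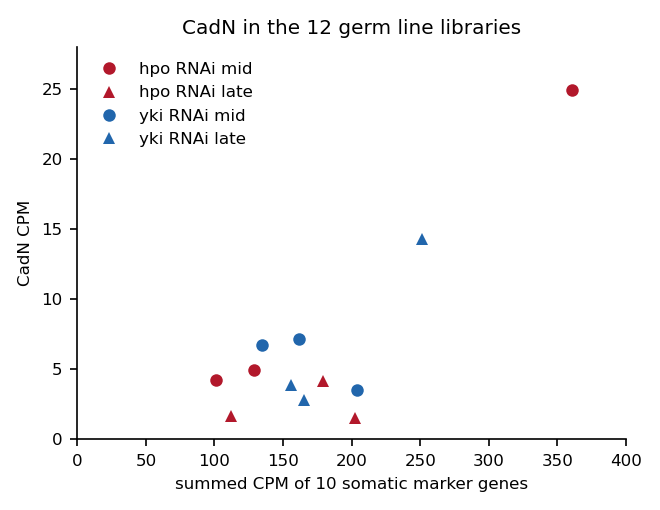
CadN in CPM against the summed CPM of 10 somatic marker genes in the 12 germ line libraries, coloured by knockdown, with circles for mid and triangles for late. The library at 24.9 CPM of CadN lies at a marker sum of 360.5 and the one at 14.3 CPM at 251, and the other 10 libraries lie at or below 7.14 CPM.

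CadN2 (FBgn0262018, 2L, 17786971 to 17875247, minus strand), a neighbouring paralogue of CadN, was barely detected. It had 150 counts in all in the soma, spread over 8 of 18 libraries with a highest value of 1.36 CPM, and 7 counts in 1 germ line library. Reads shared by both genes could be split by the estimated counting, so these low values are uncertain. It was called in no comparison by edgeR without a replicate block or by DESeq2. With the block, edgeR called it higher in the soma than in the germ line at mid and late (adjusted p = 0.0468 and 0.0366).

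Cad86C (FBgn0261053, 3R, 10827079 to 10849030, plus strand), a non-classical cadherin, was higher in the soma than in the germ line. Early libraries held 102, 127 and 85.0 CPM under hpo RNAi, against 62.5, 69.9 and 58.2 CPM under yki RNAi. Mid libraries held 79.2, 82.0 and 67.9 CPM under hpo RNAi, against 38.2, 45.5 and 77.5 CPM under yki RNAi. Late libraries held 75.2, 80.9 and 91.8 CPM under hpo RNAi, against 89.2, 89.8 and 88.4 CPM under yki RNAi. The knockdowns were apart at early, overlapped through 1 yki RNAi library at mid and lay together at late.

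Its difference of hpo RNAi against yki RNAi was 0.71 (log2, given without a test) at early, 0.48 ± 0.21 (SE, adjusted p = 0.335) at mid and -0.10 ± 0.21 (SE, adjusted p = 1) at late. Without soma yki RNAi mid replicate 3 the mid value was 0.86 and was called (adjusted p = 0.0111). Between mid and late Cad86C rose under yki RNAi by a log2 of 0.72 ± 0.21 (SE, adjusted p = 0.0291), a call kept in 1 of 6 fits that left out a library, and under hpo RNAi the change was 0.14 (adjusted p = 0.769). The germ line libraries lay between 3.29 and 9.89 CPM, and the somatic level exceeded theirs, on the log2 scale, by 3.80 ± 0.20 (SE, adjusted p = 1.41e-14) at mid and 3.73 ± 0.20 (SE, adjusted p = 1.24e-14) at late, without overlap. The germ line median of Cad86C was 9.78% of the somatic one.

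Cad87A (FBgn0037963, 3R, 11893512 to 11949129, minus strand), a non-classical cadherin, was the member that changed most between stages of the soma at a level above 10 CPM. Early libraries held 143, 132 and 80.7 CPM under hpo RNAi, against 138, 69.8 and 72.7 CPM under yki RNAi. Mid libraries held 96.2, 94.8 and 95.4 CPM under hpo RNAi, against 106, 112 and 179.8 CPM under yki RNAi. Late libraries held 243, 219 and 282 CPM under hpo RNAi, against 272, 243 and 300.1 CPM under yki RNAi. Every late library exceeded every mid library of the same knockdown.

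From mid to late Cad87A rose by a log2 of 1.40 ± 0.25 (SE, adjusted p = 0.000687) under hpo RNAi and of 1.03 ± 0.25 (SE, adjusted p = 0.00879) under yki RNAi. The first call was kept in 6 of 6 fits that left out a library and the second in 4 of 6. The knockdowns differed by -0.50 ± 0.25 (log2, SE, adjusted p = 0.414) at mid, with no overlap, and by -0.12 ± 0.25 (adjusted p = 1) at late. Without soma yki RNAi mid replicate 3, the highest of its group, the mid value was -0.20.

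In the germ line Cad87A levels were 133, 118 and 119 CPM under hpo RNAi, against 167, 173 and 123 CPM under yki RNAi at mid, and 132, 131 and 118 CPM against 183, 175 and 142 CPM at late. In the late germ line every hpo RNAi library was below every yki RNAi library, by a log2 of -0.37 ± 0.16 (SE, unadjusted p = 0.0337, adjusted p = 0.595), which was not called. The soma exceeded the germ line at late by 1.24 ± 0.16 (log2, SE, adjusted p = 2.47e-07), without overlap. At mid the cell types overlapped and the direction depended on the scaling, at 0.10 (adjusted p = 0.637) with TMM factors and -0.30 (adjusted p = 0.126) with library totals.

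Cad88C (FBgn0038247, 3R, 14630478 to 14641776, plus strand), a non-classical cadherin, carried the early difference by which it was chosen. In the early soma it measured 17.6, 15.2 and 7.56 CPM under hpo RNAi, against 0.333, 0 and 0 CPM under yki RNAi, where all 16 counts were in replicate 1. The means were 13.5 and 0.111 CPM and the fitted log2 difference was 6.85. Without that replicate the yki RNAi libraries held no count, and the fitted value of 11.86 is then no measure of size. In the same libraries the mitochondrial share of the counts was 3.27% to 4.15% under hpo RNAi and 6.05% to 10.6% under yki RNAi, and its part in the difference was not tested. Of the 8 members in the fit, Cad88C was chosen with this difference known and is left out of the count. Among the others only Cad86C did not overlap between the groups, beside 14.2% of all genes. Of all genes 2.45% were called.

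The early difference entered the choice of Cad88C, so its mid and late differences were not compared in size with the early one. Mid somatic libraries held 4.50, 9.45 and 13.01 CPM under hpo RNAi, against 1.65, 0.585 and 1.76 CPM under yki RNAi, and late ones 5.89, 6.80 and 8.47 CPM under hpo RNAi, against 4.03, 1.58 and 5.31 CPM under yki RNAi. Every hpo RNAi library was above every yki RNAi library at both stages. The log2 difference was 2.78 ± 0.93 (SE, adjusted p = 0.158 in edgeR and 0.0064 in DESeq2) at mid and 0.96 ± 0.88 (SE, adjusted p = 1) at late. The change of this difference from mid to late, -1.82 ± 1.24 (log2, SE), had an adjusted p of 0.896.

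Under yki RNAi the mean of Cad88C was 1.33 CPM at mid and 3.64 at late, and under hpo RNAi it was 8.98 and 7.05 CPM. From mid to late the log2 changes were 1.46 ± 0.89 (SE, adjusted p = 0.34) under yki RNAi and -0.36 ± 0.87 (SE, adjusted p = 0.869) under hpo RNAi. In the germ line all 12 libraries lay between 3.14 and 8.33 CPM, and the knockdowns overlapped at both stages (log2 -0.18 and 0.24, adjusted p = 0.959 and 0.956). Soma and germ line overlapped, with log2 values of -0.31 at mid and 0.30 at late and adjusted p of 0.69 and 0.699. Of its exon length, 1.32% overlaps CG7886 on the opposite strand.

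Members with a mean of at least 5 CPM in their highest somatic group were set against all genes of the somatic fit outside the cadherin superfamily lists. Across the 18 somatic libraries, the genes whose log2(CPM + 1) followed Cad88C most closely were pes (r = 0.91) and kibra (r = 0.90). The libraries share groups, depth and stage, so these r values only describe the likeness. By the same measure Cad87A was most like kst (r = 0.98), shg most like cher (r = 0.93), CadN most like LanB1 (r = 0.89) and Cad86C most like Alp12 (r = 0.86).

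**Figure D3:**
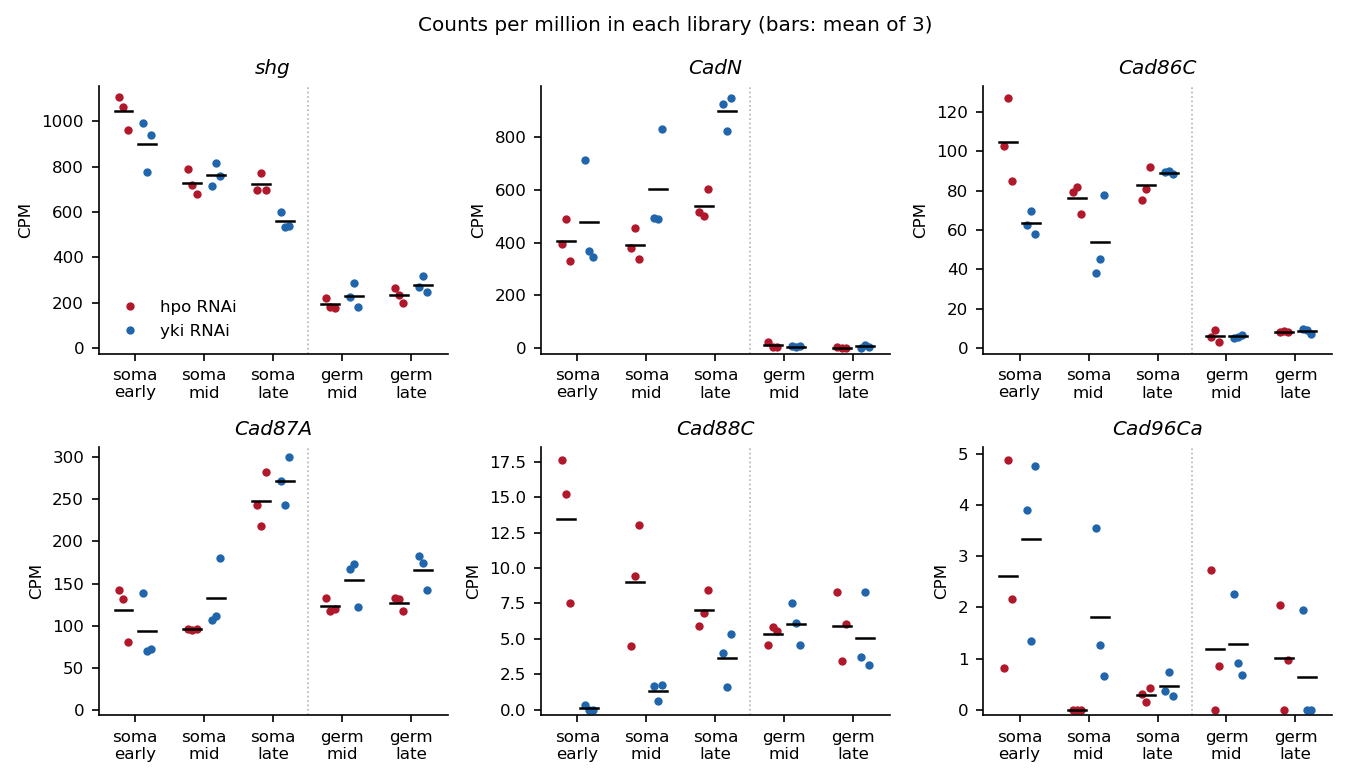
CPM of 6 cadherins in each library, by cell type and stage, in red for hpo RNAi and blue for yki RNAi, with a black bar at the mean of 3. Cad88C is at 7.56 CPM or more in the early hpo RNAi soma and at 0.333 or less in the early yki RNAi soma, Cad87A is at 219 or more in every late somatic library, and Cad96Ca is at 0 in the mid hpo RNAi soma.

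Cad99C (FBgn0039709, 3R, 29841657 to 29854699, plus strand), the fly orthologue of protocadherin 15 and known from the microvilli of adult follicle cells, was higher in the germ line of these young ovaries than in the soma. At mid the germ line held 17.9, 18.6 and 12.9 CPM under hpo RNAi, against 12.02, 10.1 and 9.22 CPM under yki RNAi, and at late 20.0, 14.5 and 9.44 CPM and 6.41, 15.3 and 7.66 CPM. Somatic libraries had a count in 9 of 18 and reached 2.57 CPM at most. The soma was lower by log2 values of -5.03 ± 1.04 (SE, adjusted p = 0.000259) at mid and -5.16 ± 1.06 (SE, adjusted p = 0.000225) at late, with no overlap. The somatic median was 0.344% of the germ line median, and the same share over 9 germ line markers ran from 0.029% to 3.98% with a median of 0.28%.

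The knockdowns of the mid germ line did not overlap in Cad99C, at a log2 of 0.65 ± 0.37 (SE, adjusted p = 0.751), and those of the late germ line did, at 0.59 ± 0.37 (SE, adjusted p = 0.758). In the late soma the hpo RNAi libraries held 0.566, 0.526 and 1.23 CPM, from 17, 27 and 29 counts, and the yki RNAi libraries 0.0858, 0 and 0.136 CPM, from 3, 0 and 4 counts. These did not overlap either, but the adjusted p was 1.

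Cad96Ca (FBgn0022800, 3R, 25197571 to 25208283, minus strand), also called Stitcher, is a receptor tyrosine kinase with a cadherin repeat that is known from epidermal wound healing in the embryo. In the mid soma it had no count in any hpo RNAi library, in libraries whose totals sum to 106.4 such units of 1000000 counts, and 3.55, 1.27 and 0.651 CPM under yki RNAi. The yki RNAi mean was thus at least 64.7-fold higher, by the floor of 3 counts over the group (0.0282 CPM), and the difference was called (adjusted p = 0.00592). The call was kept in 6 of 6 fits that left out a library and was lost when only the 6 mid libraries were fitted (adjusted p = 0.22). At this stage the sum of the 5 tracheal markers differed in the same direction. It lay between 4.58 and 6.18 CPM under hpo RNAi and between 32.7 and 42.3 under yki RNAi. Of the 4 in the fit, 1 was called lower under hpo RNAi. The sum was also lower under hpo RNAi at early (11.5 to 16.8 against 30.5 to 33.9 CPM), with 1 of 4 called lower. At late it was higher under hpo RNAi (26.6 to 29.6 against 11.4 to 18.2 CPM), with 0 called.

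At the other stages Cad96Ca overlapped between the knockdowns. Early libraries held 0.82, 4.88 and 2.16 CPM under hpo RNAi, against 3.91, 1.34 and 4.76 CPM under yki RNAi, and late ones 0.3, 0.156 and 0.423 CPM and 0.372, 0.732 and 0.272 CPM. With the mid hpo RNAi libraries at 0, the early mean was at least 93.0-fold higher (adjusted p = 0.00617) and the late mean at least 10.4-fold higher (adjusted p = 0.00959) under hpo RNAi. Fitted on the compared libraries alone, the first step was not called (adjusted p = 0.174) and Cad96Ca was not in the fit of the second. Under hpo RNAi the summed tracheal markers were also lowest at mid, with 11.5 to 16.8 CPM at early and 26.6 to 29.6 at late. The sum of the 6 muscle markers was lowest at mid too. It was 26.1 to 36.3 CPM at early, 7.48 to 15.5 at mid and 46.3 to 110.6 at late. The muscle genes did not move together: from mid to late 1 was called higher and 1 lower, and their median log2 change was negative. Over all somatic libraries Act57B reached 108 CPM, while up reached 0.917 and Tm2 0.39 at most. The tracheal regulator trh was at 0 in 8 of 18 somatic libraries and reached 1.09 CPM at most. The part of these cells in the Cad96Ca values was not tested. The change of the knockdown difference from mid to late had an adjusted p of 0.0682 in edgeR and was called by DESeq2.

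Germ line counts of Cad96Ca were uneven: 4 of 12 libraries had none, in 3 different groups, and the other 8 had between 21 and 64. In the mid soma it was lower than in the germ line (adjusted p = 0.0342), but the mid hpo RNAi libraries at 0 entered that comparison with equal weight and the call was kept in 5 of 12 fits that left out a library. At late the adjusted p was 0.644.

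Cad74A (FBgn0036715, 3L, 17367753 to 17379530, minus strand) and Cad89D (FBgn0038439, 3R, 16484566 to 16495422, minus strand), both non-classical cadherins, had no count in any of the 18 somatic libraries. With somatic totals that sum to 653 units of 1000000 counts, a count of 0 allows up to 0.00459 CPM. Cad74A had 104 counts in 5 of 12 germ line libraries, 76 of them in hpo RNAi mid replicate 4, and Cad89D had 116 counts in 8 of 12. These are few counts in few libraries.

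Cad89D was called lower in the soma at mid (adjusted p = 0.0443, germ line at least 6.8-fold higher) and at late (adjusted p = 0.00644, at least 46.1-fold higher), with the late call kept in 12 of 12 fits that left out a library and the mid call in 3 of 12. DESeq2 made neither call (adjusted p = 0.415 at mid and 0.0886 at late), and the mid call was also lost without a filter on low counts (0.063) and with the replicate block (0.178). Cad74A was called at mid (adjusted p = 0.0289, at least 22.9-fold higher), kept in 4 of 12 and lost with the replicate block (0.0876), and at late the adjusted p was 0.158. DESeq2 gave Cad74A no adjusted p.

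Across the knockdowns, few cadherins passed the test. In the mid soma 1 of the 8 members in the fit was called, Cad96Ca, against 2.50% of all genes, and 4 of 8 did not overlap between knockdowns, against 13.3% of all genes. In the late soma 0 of 8 were called in edgeR, against 1.03% of all genes. At an unadjusted p under 0.05 there were 2, shg and CadN, DESeq2 called 1, and 4 of 8 did not overlap, against 24.5% of all genes. The median log2 difference over the members was -0.57 at mid and 0.14 at late, beside -0.00417 and 0.0174 over all genes. Members near 0 entered the mid median, with CadN2 at -4.47 (1 count against 32) and Cad99C at -3.42 (13 counts against 78). The members did not share a direction at mid, since Cad86C (0.48) and Cad88C (2.78) were positive and shg was at -0.09.

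In the germ line edgeR called 0 of 8 members at mid (0.103% of all genes) and 0 of 8 at late (0.187%). At an unadjusted p under 0.05 there were 0 and 1, and DESeq2 called 0 at both stages. Groups did not overlap for 1 of 8 members at each stage, Cad99C and Cad87A, beside 9.95% and 17.5% of all genes. Tests of the difference itself also called 0 members in edgeR: between the mid and late soma (0.403% of all genes, 2 members at an unadjusted p under 0.05, 1 in DESeq2), between soma and germ line at mid (0.165%, 4 and 2) and at late (0.182%, 1 and 0). The Cad88C difference was larger in the soma than in the germ line at mid by a log2 of 3.04 ± 1.16 (SE), with an unadjusted p of 0.0147 and an adjusted p of 0.392, and DESeq2 called it.

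**Figure D4:**
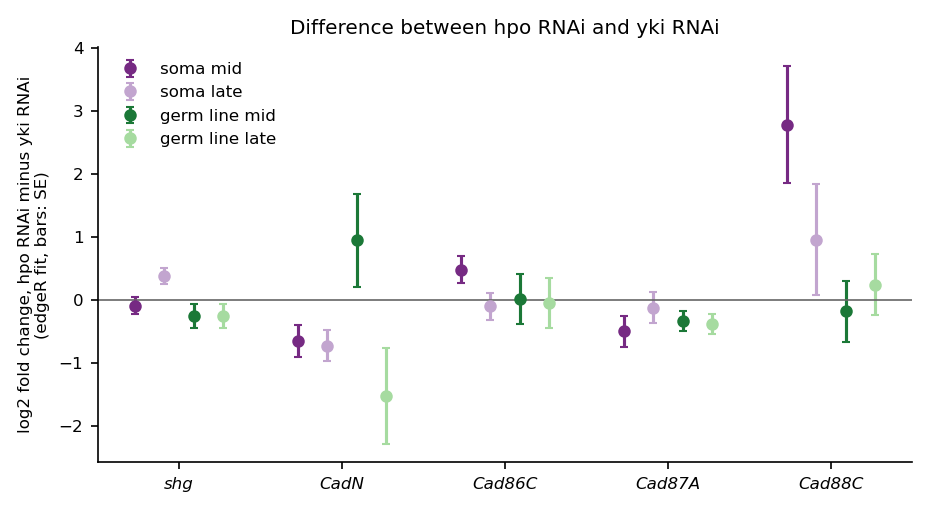
Log2 fold change of hpo RNAi against yki RNAi with its SE for the 5 cadherins with counts in every mid and late library, in the mid and late soma (purple) and germ line (green). Cad88C at the mid soma lies at 2.78, CadN at -0.65 and -0.72 in the soma, and none of the plotted values passed the adjusted threshold of 0.05. Cad96Ca, which was called in the mid soma, is not plotted.

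Between the cell types 7 of 10 members were called at mid, 3 higher and 4 lower in the soma, where 54.1% of all genes were called, 25.1% higher and 29.0% lower. At late 6 of 10 were called, 4 higher and 2 lower, against 51.9% of all genes, 25.4% higher and 26.5% lower. Libraries of the cell types did not overlap for 4 of 10 members at mid (33.7% of all genes) and 5 of 10 at late (46.1%). Over all genes the median log2 value was -0.17 and -0.12, and library totals in place of TMM factors moved it to -0.56 and -0.52. They also moved the split of all called genes at mid from 3034 higher and 3503 lower to 2188 and 4827, and at late from 3073 and 3205 to 2259 and 4566. The counts of called members were 7 and 6 under both scalings, and 5 and 5 in DESeq2.

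Cad88C shares its early somatic libraries with the choice, so it was left out of the counts for mid against early. Between stages of the soma 1 member, Cad96Ca, was called for mid against early under hpo RNAi (2.72% of all genes). For late against mid 2 of 8 were called (15.8%). Under yki RNAi edgeR called 0 members for mid against early (0.684%) and 3 of 8 for late against mid (13.2%). For mid against early under yki RNAi, Cad87A and Cad99C had an unadjusted p under 0.05 among the members counted. DESeq2 called none. In the germ line late against mid called 0 of 8 (0.149%), with 1 member, Cad89D, at an unadjusted p under 0.05 and 0 in DESeq2.

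Genes that work with cadherins were listed by role and tested in the same fits. Of 12 catenins and adherens junction partners, 1 was higher and 2 were lower under hpo RNAi in the mid soma: echinoid (ed), an adhesion protein of the junction, by a log2 of 1.39 ± 0.29 (SE, adjusted p = 0.00961), vinculin (Vinc) by -0.75 ± 0.16 (adjusted p = 0.0127) and the polarity protein bazooka (baz) by -0.73 ± 0.14 (adjusted p = 0.00453). The list's median was -0.09. In the late soma 0 of 12 were called, and in the germ line 0 of 12 at either stage. The catenins arm, alpha-Cat and p120ctn were called in none of the knockdown comparisons at mid or late.

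Of the 6 cadherin superfamily genes outside the members, starry night (stan), a cadherin with a G-protein-coupled receptor domain that acts in planar polarity, was lower under hpo RNAi in the mid soma, at 6.77 against 30.9 CPM (log2 -2.25 ± 0.39, adjusted p = 0.00269). None of the other 5 was called in either cell type between the knockdowns at mid or late. Among 5 apical partners, crumbs (crb), which sets the apical membrane, was higher under hpo RNAi at mid (0.94 ± 0.23, adjusted p = 0.0279) and its partner stardust (sdt) at late (1.45 ± 0.20, adjusted p = 0.000548). Among 5 other adhesion genes, Fas3 was lower (-0.95 ± 0.23, adjusted p = 0.0277) and Nrt higher (0.74 ± 0.18, adjusted p = 0.024) at mid.

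From mid to late in the soma, 6 of the 12 junction partners rose under hpo RNAi and none fell, where 15.8% of all genes were called, with a list median of 0.57 beside 0.04 over all genes. Under yki RNAi 6 rose and 1, Vinc, fell, where 13.2% of all genes were called, with a median of 0.61 beside 9.91e-05. Echinoid moved most, by 2.09 ± 0.30 (adjusted p = 6.95e-05) and 3.07 ± 0.31 (adjusted p = 1.53e-06), and arm, the catenin that binds shg and CadN, rose by 0.76 ± 0.15 (adjusted p = 0.00132) and 0.59 ± 0.15 (adjusted p = 0.00955). Dachsous (ds), a large cadherin that binds Fat, rose by 2.14 ± 0.25 (adjusted p = 7.62e-06) and 1.82 ± 0.25 (adjusted p = 4.28e-05), and stan by 2.93 ± 0.40 (adjusted p = 4.47e-05) and 1.31 ± 0.37 (adjusted p = 0.024).

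Markers of somatic ovary cells moved with this step and with the rise of Cad87A. The 10 genes summed to between 2814 and 4994 CPM in the mid soma and to between 7184 and 8236 in the late soma. Under hpo RNAi 7 of 10 were called higher at late (median log2 1.10) and under yki RNAi 4 of 10 (median 0.76), and none was called lower.

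The summed hemocyte markers moved with it too, from between 56.6 and 179.9 CPM in the mid soma to between 939.6 and 1858 in the late soma. Nearly all of the late sum was Pxn, which codes for a matrix peroxidase. Of the 3 hemocyte markers in the fit, 2 were called higher at late under each knockdown, and srp, a GATA factor of blood cells and fat body, had between 17.3 and 94.5 CPM in every somatic library. He and NimC1 were at 0 in 18 and 16 of the 18 somatic libraries, Hml reached 1.89 CPM at most and eater was at 0 in 16. The part of somatic ovary cells and hemocytes in the late values was not tested.

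Between the cell types, where 54.1% of all genes were called at mid and 51.9% at late, the lists gave these counts. Of the 6 other superfamily genes 4 were higher and 1 lower in the soma at mid, and 5 higher and 0 lower at late, led by ds (4.34 ± 0.29 and 6.94 ± 0.33, adjusted p = 1.82e-12 and 1.53e-15) and stan (4.90 ± 0.51 and 9.43 ± 0.65, adjusted p = 7.09e-09 and 2.66e-12). Cad96Cb, which lies in the same cytological region as Cad96Ca by its name, was lower in the soma at mid (-1.998 ± 0.61, adjusted p = 0.00766). Of the 12 junction partners 6 were higher and 3 lower at mid, and 8 higher and 0 lower at late, with pyd, the fly ZO-1, at 2.52 ± 0.13 and 3.38 ± 0.14 (adjusted p = 1.32e-14 and 5.68e-17). The catenin alpha-Cat was lower in the soma at mid (-0.74 ± 0.16, adjusted p = 0.000402).

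Sans, whose vertebrate counterpart works with protocadherin 15 in sensory hair bundles, was lower in the soma by -4.76 ± 0.62 (adjusted p = 3.41e-07) at mid and -6.52 ± 0.68 (adjusted p = 7.52e-09) at late, in the same direction as Cad99C. Its means were 51.7 and 55.5 CPM in the germ line and 1.46 and 0.454 CPM in the soma. Among the other adhesion genes Fas3 was higher in the soma by 5.90 ± 0.42 and 6.70 ± 0.44 (adjusted p = 5.99e-12 and 8.73e-13), and Toll (Tl) lower by -3.99 ± 0.21 and -4.26 ± 0.21 (adjusted p = 1.23e-14 and 3.01e-15).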

How the data were processed

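Polyadenylated RNA of sorted somatic and germ line ovary cells was amplified by PCR and sequenced on single-end runs, per the labels' protocols. The authors deposited estimated counts per gene (expected counts), without normalization. The submitters' processing notes name bcl2fastq 2.2, STAR 2.7.6a, RSEM 1.3.3 and DESeq2 1.26.0, and the genome build, annotation and strand setting are not given in the sources used here. Of the values 86.5% were whole, and all were rounded to whole numbers before testing. A further 18 columns of per-sample values matched no sample and were not used. Of 16257 gene IDs 16206 matched the BDGP6.54 annotation, which gave symbols, positions and exon lengths.

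In R 4.3.3, edgeR 4.0.16 (TMM, filterByExpr with a minimum count of 10, quasi-likelihood test) was fitted to 18 somatic libraries (10672 genes), 12 germ line libraries (10717) and all 30 (12089). P-values were adjusted by Benjamini-Hochberg over all genes of a fit, and a call is an adjusted p under 0.05. All 10 cadherins are named in each comparison. A gene of another list is named where it was called between knockdowns, or among the 2 largest changes in each direction, and arm was named after its values were seen. Somatic and germ line fits held 8 members each (without Cad74A and Cad89D, and without CadN2 and Cad74A), the joint fit all 10. The members and lists were chosen with earlier results of these data known. CPM use library totals. The SE come from the edgeR fits and include the spread between replicates. Floors cover counting error only, and PCR copies are not independent molecules. DESeq2 1.42.0 and other settings were run as alternatives. Replicate numbers were not treated as pairs in the main fits. Of 12 same-numbered pairs 4 correlated above 0.1, with a highest value of 0.235, and differently numbered pairs reached 0.228. With so few pairs this cannot settle whether the numbers mark pairs, and the replicate block was run as an alternative.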

Additional observations from a re-analysis of the deposited data

How the results depend on the processing

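No cadherin's called direction reversed under any alternative. Of the cadherin log2 values recomputed with a test, 1736 kept their side of the threshold, 46 lost a call and 13 gained one. In the early soma the log2 of Cad88C ranged from 6.30 to 11.86 over the fits leaving out 1 library. DESeq2 called 2 members in the mid soma and 1 in the late soma between knockdowns, 2 for mid against early under hpo RNAi, and 1 and 2 for the changes of the knockdown difference from mid to late and from germ line to soma at mid. Fitting only the libraries compared called 0 in the mid soma, 2 in the late soma, 0 for mid against early under hpo RNAi, and 1 each for late against mid under hpo RNAi and yki RNAi. The stricter filter (5 CPM in 3 libraries), which removes low genes, called 0 in the mid soma, 4 between cell types at mid and 1 for late against mid under hpo RNAi. Leaving out 1 library gave 1 to 2 calls in the mid soma, 4 to 7 between cell types at mid and 0 to 3 for late against mid under yki RNAi. With the replicate block, 1 member was called in the mid soma, 6 between cell types at mid and 7 at late. The block added CadN2 at both stages (adjusted p = 0.0468 and 0.0366), dropped Cad74A (0.0876) and Cad89D (0.178) at mid, and changed no other member's call. Library totals in place of TMM were chosen after seeing the data and moved no member's call.

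Counts over all genes moved more. Between knockdowns DESeq2 called 874, 580 and 204 genes in the early, mid and late soma (261, 267 and 110 in edgeR), and 88 and 113 in the mid and late germ line (11 and 20), and only the libraries compared gave 76, 137, 641, 6 and 37. No filter gave 26 and 56 in the germ line. Leaving out 1 library gave 142 to 400, 166 to 253, 45 to 72, 4 to 15 and 4 to 8. For mid against early DESeq2 called 825 and 368 (290 and 73), only the libraries compared 52 and 16, no filter 118 under yki RNAi, and leaving out 1 library 111 to 422 and 33 to 78. For late against mid leaving out 1 library gave 1080 to 1502 and 893 to 1635 (1687 and 1407) for somatic cells, and 5 to 24 (16) for germ line cells, with 187 in DESeq2 and 51 without a filter. For the 3 tests of a difference DESeq2 called 183, 219 and 105 (43, 20 and 22), only the libraries compared 100, 1 and 148, no filter 86 and 34 for the first 2, library totals 12 for the second, and leaving out 1 library 22 to 55, 5 to 45 and 1 to 15. The causes were not tested. Depth limits CadN2, Cad74A, Cad89D and Cad96Ca, whose calls rest on low counts.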
